A study of Rattus norvegicus with 9 samples.

Results

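The genes described here encode the receptors through which ovarian steroids act, a gene that oestrogen receptor switches on, and their orphan relatives, measured in a striated muscle beneath the pelvic organs, the pubococcygeus. They were named by symbol, as Esr1, Esr2, Gper1, Pgr, Greb1, Esrra and Esrrg, with earlier results of these data known. Of these 7 symbols, 6 matched 1 row each among the 30518 of the count table, and 5 passed the filter on low counts (Esr2 did not), which left 16256 genes tested in all. Levels of Esrra are not analysed here, and only its promoter was searched.

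RNA came from female Sprague-Dawley rats in 3 groups, with 3 libraries each, from a study of 24 rats in groups of 8. Blank rats were neither operated on nor treated, so their ovaries were in place. SUI rats, a model of stress urinary incontinence, lost both ovaries and had the vagina stretched by an 8 Fr balloon catheter holding 3 mL of saline under a 120 g load for 4 h, with nothing further done. Stimulated rats went through the same surgery and distension and, starting 1 week afterwards, received pelvic floor electrical stimulation (PFES) through the vagina, as square pulses of 200 µs at 50 Hz and 20 mA, for 30 min daily on 5 days of each of 2 weeks. The 6 SUI and stimulated libraries thus all come from ovariectomised rats. Loss of the ovaries and distension went together in each of them, and these cannot be told apart. No group had its ovaries replaced by hormone, and the sources used here give neither the age of the rats nor the cycle stage of the blank rats. The labels do not say how libraries relate to rats, and p-values therefore cover only library-to-library spread, which may be technical.

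Depth ran from 50833480 to 147650284 counts per library. Blank replicate 1 was the shallowest library, carried 32.9% of its counts on the mitochondrial genome against 13.4% to 17.7% in the others, and had the lowest median correlation with the other libraries across genes (r = 0.894). The labelled tissue was checked against its markers, and the 11 genes of striated fibres summed to between 123991 and 231767 CPM (counts scaled to library size with TMM factors) in every library. Markers of vaginal, urethral and bladder epithelium summed to only 0.85 to 1.72 CPM over the 11 matched. Of these epithelia the vaginal is known to be rich in oestrogen and progesterone receptors. The bladder genes Upk2 and Upk3a had a count of 0 in all 9 libraries.

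Oestrogen receptors alpha and beta, encoded by Esr1 and Esr2, and the progesterone receptor, encoded by Pgr, are transcription factors that work when their steroid is bound. Oestrogen receptor on DNA raises transcription of Pgr and of Greb1, a cofactor of the same receptor, in reproductive tissues, and both are standard readouts of its activity there. The oestrogen-related receptors, such as Esrrg, share the DNA-binding fold but bind no oestrogen. In muscle they pair with coactivators of the PGC-1 family and drive genes of mitochondria and oxidative fibres. Gper1 encodes a membrane receptor of another class, coupled to G proteins.

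Promoter sequence was available in the RefSeq table for 5 of the 7 symbols, in 8 windows because Esrrg has several start sites, on build GRCr8. The 250 bases before each start were searched on both strands for the palindromic oestrogen response element, in which the core GGTCA faces its reverse complement across a gap of 3 bases, for the oestrogen-related receptor element TCAAGGTCA, for its shorter form AAGGTCA and for the core itself, which all of them contain. None of the 8 windows held the palindrome, which is in 0.0239% of all 33469 windows of that length. Shown are the promoters of Pgr, of the Esrrg start site that has a core, and of Perm1, a coactivator partner of Esrrg described below. Capitals mark the core in Esrrg and the shorter form AAGGTCA in Perm1, both on the reverse strand, and no match was found in Pgr. The Esr2 window also held the core.
Pgr (chr8:14354148-14354397, plus strand): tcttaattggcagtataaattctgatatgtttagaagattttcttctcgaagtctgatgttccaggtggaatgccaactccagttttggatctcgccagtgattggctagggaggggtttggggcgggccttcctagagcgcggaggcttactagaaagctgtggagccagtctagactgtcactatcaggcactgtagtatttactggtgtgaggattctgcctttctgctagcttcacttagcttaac
Esrrg (chr13:101755510-101755759, plus strand): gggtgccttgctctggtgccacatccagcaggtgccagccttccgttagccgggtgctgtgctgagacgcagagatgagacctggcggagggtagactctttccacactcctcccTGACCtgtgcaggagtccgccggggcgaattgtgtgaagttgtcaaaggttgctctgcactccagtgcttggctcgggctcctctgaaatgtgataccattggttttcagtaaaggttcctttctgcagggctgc
Perm1 (chr5:172081999-172082248, plus strand): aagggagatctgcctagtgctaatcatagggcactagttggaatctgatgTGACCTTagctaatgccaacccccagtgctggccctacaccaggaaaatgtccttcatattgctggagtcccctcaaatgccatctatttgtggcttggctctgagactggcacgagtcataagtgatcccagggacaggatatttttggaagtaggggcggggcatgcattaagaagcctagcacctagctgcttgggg
The core was present in 35.4% of all windows and AAGGTCA in 3.99%, so these matches describe the letters and no more. The match in Perm1 began 200 bases before the start and that in Esrrg 135 bases before it.

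Levels per gene length were compared within the blank group, in FPKM, which is scaled by gene length and library size. Esrrg was the most abundant at 2.61 ± 0.348 FPKM (SD, n = 3), followed by Esr1 at 1.06 ± 0.301, and their ranges did not overlap. Greb1 at 0.479 ± 0.445 FPKM overlapped with Esr1 above it and with Gper1 below it, at 0.392 ± 0.182. Pgr followed at 0.0660 ± 0.0410 FPKM, below every Gper1 value. Esr2 was last at 0.00638 ± 0.00555 FPKM. The muscle thus carried alpha receptor message, little of that for the progesterone receptor, and almost none for the beta receptor. After stimulation the order and the overlaps differed: Gper1 lay at 0.475 to 0.761 FPKM and Greb1 at 0.0289 to 0.0716, so that these genes, which overlapped in blank muscle, no longer overlapped. Esrrg and Esr1, which were apart in blank muscle, overlapped there, at 1.73 to 2.57 and 1.22 to 2.50 FPKM.

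Greb1, a cofactor that oestrogen induces in reproductive tissues, had a lower mean level in muscle of ovariectomised rats than in blank muscle. It measured 3.26, 9.58 and 2.08 CPM in the blank libraries, 0.576, 2.79 and 0.802 in SUI, and 0.617, 0.280 and 0.747 after stimulation. The stimulated libraries lay below every blank library, whereas SUI replicate 2 lay above blank replicate 3, and blank replicate 2 stood far above the others of its group. Over all 6 ovariectomised libraries against the 3 intact ones, Greb1 was 5.71-fold lower, a log2 fold change of -2.51 ± 0.60 SE, and ranked 38 by p among the 16256 genes. With edgeR this did not pass over all genes tested (unadjusted p = 0.00189, adjusted p = 0.764). With DESeq2, it did (-2.53 ± 0.61, adjusted p = 0.0179), as 1 of 45 genes, or 0.277% of those tested. The row lies on the minus strand of chromosome 6 from 39440504 to 39581633 (mRatBN7.2), and no other row overlaps it.

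The size of the Greb1 difference rested in part on blank replicate 2. Without that library its log2 fold change was -1.60 with edgeR and -1.65 with DESeq2, where adjusted p became 0.302. The DESeq2 call was also lost without blank replicate 1 (adjusted p = 0.0837) or SUI replicate 3 (0.0519), and it held without each of the other 6 libraries. The value stayed negative in each of these fits.

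Pgr, the progesterone receptor gene, had the same ordering at a far lower level. Its counts were 12, 56 and 13 in the blank libraries, 7, 14 and 0 in SUI, and 4, 0 and 4 after stimulation. In CPM these were 0.318, 0.434 and 0.128 in blank, 0.0620, 0.127 and 0 in SUI, and 0.0305, 0 and 0.0311 in stimulated muscle. Pgr entered the tests through the blank group, where it is high: 3 blank libraries, 1 SUI library and 0 stimulated libraries reached the filter's level of 0.0903 CPM. Its separation, fold change and p-values are therefore given as a description and support nothing. Every ovariectomised library lay below every blank one, which holds for 1.11% of all tested genes in that direction. Stimulated libraries alone lay below every blank one in 4.72% of tested genes, Greb1 among them, and SUI libraries alone in 7.77%. At its narrowest the separation of Pgr was within counting error: blank replicate 3 with 13 counts (95% exact Poisson interval 6.92 to 22.2) and SUI replicate 2 with 14 (7.65 to 23.5) had overlapping intervals. Its log2 fold change in ovariectomised over intact muscle was -2.98 ± 0.99, or 7.91-fold lower (edgeR unadjusted p = 0.0136, adjusted p = 0.764; DESeq2 adjusted p = 0.349). Pgr lies on the plus strand of chromosome 8 from 6072673 to 6131344, overlapped by no other row.

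**Figure D1:**
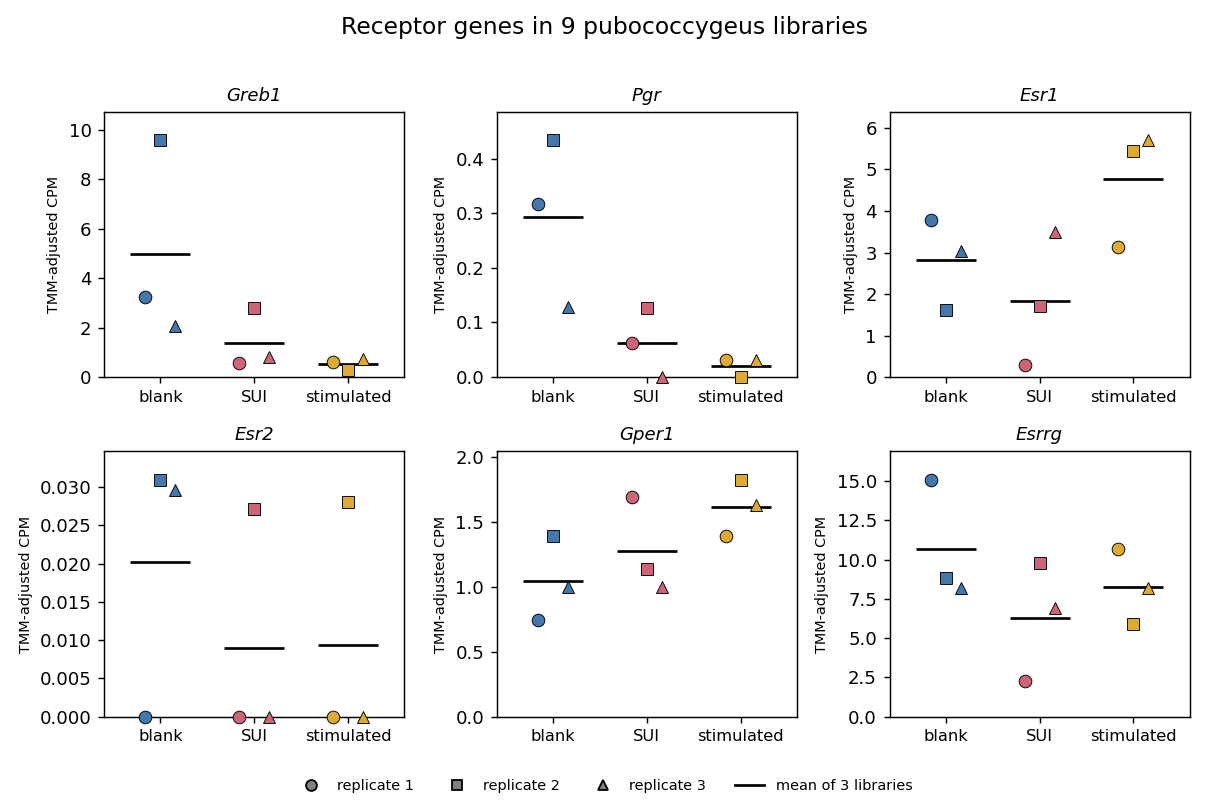
TMM-adjusted CPM (vertical axes from 0, each with its own range) of 6 genes in the 3 groups, 1 point per library with its replicate number as the shape and the group mean as a line. The group means of Greb1 and Pgr are highest in blank and lowest in stimulated muscle. Single libraries overlap between blank and SUI for each gene but Pgr.

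Set against the groups separately, both genes were lowest after stimulation. For Greb1 the log2 fold change was -1.84 ± 0.73 in SUI over blank (edgeR unadjusted p = 0.0315, adjusted p = 0.568) and -3.18 ± 0.78 in stimulated over blank (unadjusted p = 0.00226, adjusted p = 0.898). DESeq2 called Greb1 in the latter (-3.21 ± 0.71, adjusted p = 0.00714) as 1 of 21 genes, or 0.129%, and lost it without blank replicate 2 (adjusted p = 0.246) or stimulated replicate 2 (0.118). In SUI over blank DESeq2 gave Greb1 an adjusted p of 0.220. For Pgr the values were -2.19 ± 1.21 in SUI over blank (edgeR adjusted p = 0.617) and -3.78 ± 1.32 in stimulated over blank (unadjusted p = 0.0172, adjusted p = 0.898). These comparisons share the blank libraries. Lower values at an unadjusted edgeR p under 0.05 were found for 5.34% of tested genes in SUI over blank and for 1.81% in stimulated over blank, against 4.04% in ovariectomised over intact. Stimulated muscle was not shown to differ from SUI muscle in either gene: Greb1 gave -1.34 ± 0.73 (edgeR adjusted p = 0.708) and Pgr -1.59 ± 1.29 (0.819). Without SUI replicate 2, where both genes were at their highest among the ovariectomised libraries, these were -0.34 and -0.64, and Pgr was at -1.01 without stimulated replicate 2. An order of group means from blank through SUI to stimulated was seen in 13.6% of tested genes.

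**Figure D2:**
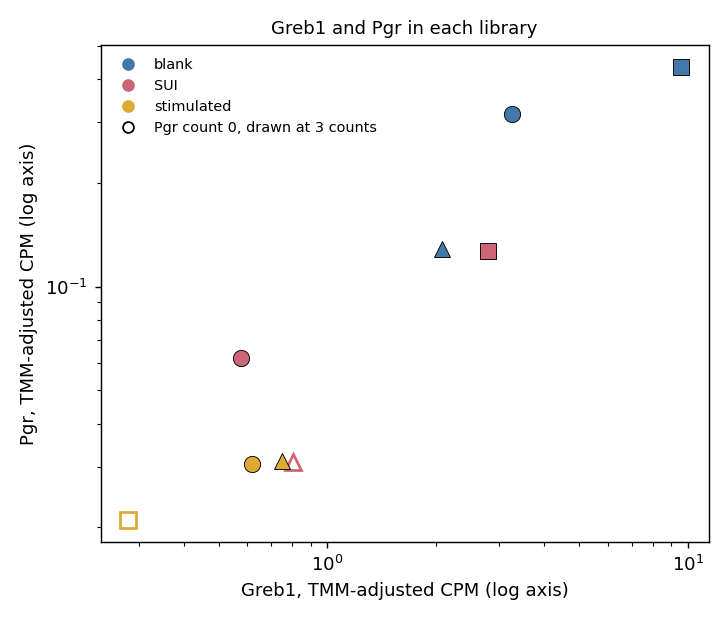
Pgr against Greb1 in the 9 libraries, both in TMM-adjusted CPM on log axes, coloured by group. Hollow points have a Pgr count of 0 and are drawn at the value of 3 counts. Blank replicate 2 is at the top right, at 9.58 CPM of Greb1 and 0.434 of Pgr, SUI replicate 2 lies beside blank replicate 3, and the stimulated libraries and SUI replicate 3 are at the lower left.

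Across the 9 libraries, which span the groups and share their depth differences, log2 CPM of Greb1 and Pgr had a Pearson r of 0.84. Pgr entered the tests through the blank group and had few counts elsewhere, so its correlations are a description and support nothing. The named genes of at least 1 CPM whose pattern was most like that of Greb1, among 11256, were Tpx2, a spindle assembly factor (r = 0.97), Prpf19, a splicing factor (0.90), and C2h1orf52 (0.86). For Pgr they were Lrrc2 (0.93), the clock transcription factor Npas2 (0.91) and Ythdc2, an RNA-binding helicase (0.90). The summed epithelial markers were 0.98 to 1.41 CPM in blank, 0.85 to 1.43 in SUI and 1.07 to 1.72 after stimulation, ranges that overlapped. Their r with Greb1 was -0.23 and with Pgr -0.07. Satellite cell markers summed to 7.15 to 10.7 CPM in blank, 6.42 to 9.40 in SUI and 9.99 to 15.0 in stimulated libraries. The blank range overlapped with both others, and Chodl was the most abundant of these genes, at a mean of 4.74 CPM. The r of this sum with Greb1 was -0.72, and its part in the Greb1 values was not tested. Whether the levels reflect RNA per cell or the number of cells that hold the transcript cannot be told apart in bulk muscle.

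**Figure D3:**
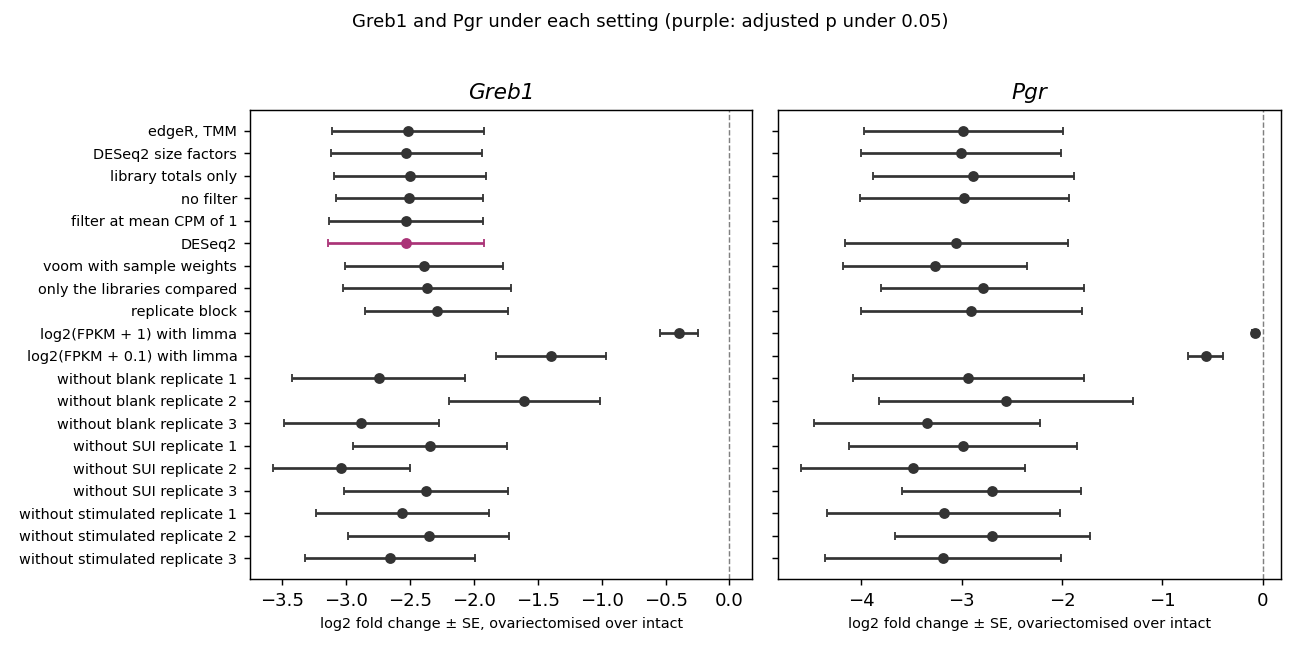
Log2 fold change ± SE of Greb1 and Pgr in ovariectomised over intact muscle under each alternative, with the dashed line at 0. All values lie below 0, the DESeq2 value of Greb1 (-2.53) is coloured because its adjusted p is under 0.05, and the FPKM fits are nearer to 0 because a constant is added to low values. The filter at a mean CPM of 1 leaves out Pgr.

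Esr1, the alpha receptor, showed another arrangement. It measured 3.79, 1.62 and 3.04 CPM in blank, 0.301, 1.72 and 3.50 in SUI, and 3.13, 5.45 and 5.71 in stimulated muscle. The groups overlapped, and SUI replicate 1 held the lowest value of all 9 libraries. In ovariectomised over intact muscle the log2 fold change of Esr1 came to 0.08 ± 0.60 (edgeR adjusted p = 0.979) and went to -0.35 without SUI replicate 3 and to 0.33 without blank replicate 1. The means were 2.82 ± 1.10 CPM in blank and 3.30 ± 2.10 over the 6 ovariectomised libraries (SD). Between the ovariectomised groups it was higher after stimulation, 4.76 ± 1.42 against 1.84 ± 1.61 CPM (SD, n = 3), at 1.37 ± 0.69 on the log2 scale, without passing the threshold (edgeR unadjusted p = 0.0769, adjusted p = 0.682; DESeq2 adjusted p = 0.462). Without SUI replicate 1 the difference was 0.88, and without SUI replicate 3 it was 2.24. SUI over blank gave -0.61 ± 0.69, with -1.47 to -0.11 on leaving out each library, and stimulated over blank 0.76 ± 0.69. The gene spans 41210475 to 41463618 of chromosome 1, plus strand, and the row that overlaps it on the other strand had no counts.

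Fibroblasts and fibro-adipogenic progenitors, connective tissue cells of muscle, are also known to hold the alpha receptor. Their 10 markers summed to 1320 to 1610 CPM in blank, 573 to 924 in SUI and 1008 to 3392 in stimulated libraries. The collagen gene Col3a1 was the most abundant of them, at a mean of 624 CPM, and weighs heavily in the sum. Whether the sum follows cell number or expression of such genes was not tested. Over the 9 libraries log2 Esr1 had an r of 0.49 with this sum and of 0.77 with the sum of striated fibre markers. The fibre sum was lowest in SUI replicate 1, as Esr1 was. The part of either marker set in the Esr1 values was not tested. The genes most like Esr1 were Palld, an actin cross-linker (r = 0.96), Larp4b (0.96) and Mlf1 (0.95).

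Esr2, the beta receptor, was near the limit of detection. Its counts were 0, 4 and 3 in blank, 0, 3 and 0 in SUI, and 0, 4 and 0 after stimulation. No library exceeded 4 counts among at least 50833480, and 3 counts correspond to 0.0210 to 0.0794 CPM. It reached the filter's level in 0 libraries and no difference between groups was detectable at this depth. On chromosome 6 (94809547 to 94908919, minus strand) it overlaps Syne2, which lies on the opposite strand at a mean of 22.9 CPM. The sources used here do not say whether reads were assigned by strand, so even these few counts are uncertain.

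Gper1, the membrane oestrogen receptor, was low and fairly even. The blank libraries had 0.741, 1.39 and 0.997 CPM, the SUI libraries 1.69, 1.14 and 0.997, and the stimulated libraries 1.39, 1.82 and 1.63. Blank replicate 2 and stimulated replicate 1 were equal to 3 digits, so the groups met. The log2 difference was 0.45 ± 0.31 in ovariectomised over intact muscle (edgeR adjusted p = 0.764), SUI over blank 0.28 ± 0.35 (0.799), stimulated over blank 0.62 ± 0.35 (0.898) and stimulated over SUI 0.34 ± 0.35 (0.876). Leaving out each library gave 0.27 to 0.72 for the first of these and 0.19 to 0.60 for the last. Gper1 (chromosome 12, 15217442 to 15221889, minus strand) is overlapped by C12h7orf50 on the opposite strand, at a mean of 4.14 CPM, and the share of its reads that might come from there was not tested. Over the 9 libraries log2 Gper1 had an r of 0.76 with the sum of epithelial markers, whose part in its values was not tested. The pattern of Igfbp4, an insulin-like growth factor binding protein gene, was the most like it (r = 0.99), followed by Erf (0.98) and Gltp (0.96).

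With edgeR none of the 5 tested members passed in any of the 4 comparisons, where 0 genes were called in ovariectomised over intact (0% of those tested), 0 in SUI over blank (0%), 2 in stimulated over SUI (0.0123%) and 1 in stimulated over blank (0.00615%). At an unadjusted edgeR p under 0.05 the members were Greb1 and Pgr in ovariectomised over intact and in stimulated over blank, Greb1 in SUI over blank, and 0 in stimulated over SUI. Of all genes, in either direction, 5.78% were under that value in ovariectomised over intact, 3.77% in stimulated over blank, 8.18% in SUI over blank and 8% in stimulated over SUI. Pgr entered the tests through the blank group, where it is high, and the members were named with earlier results known. This tally is therefore a description.

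**Figure D4:**
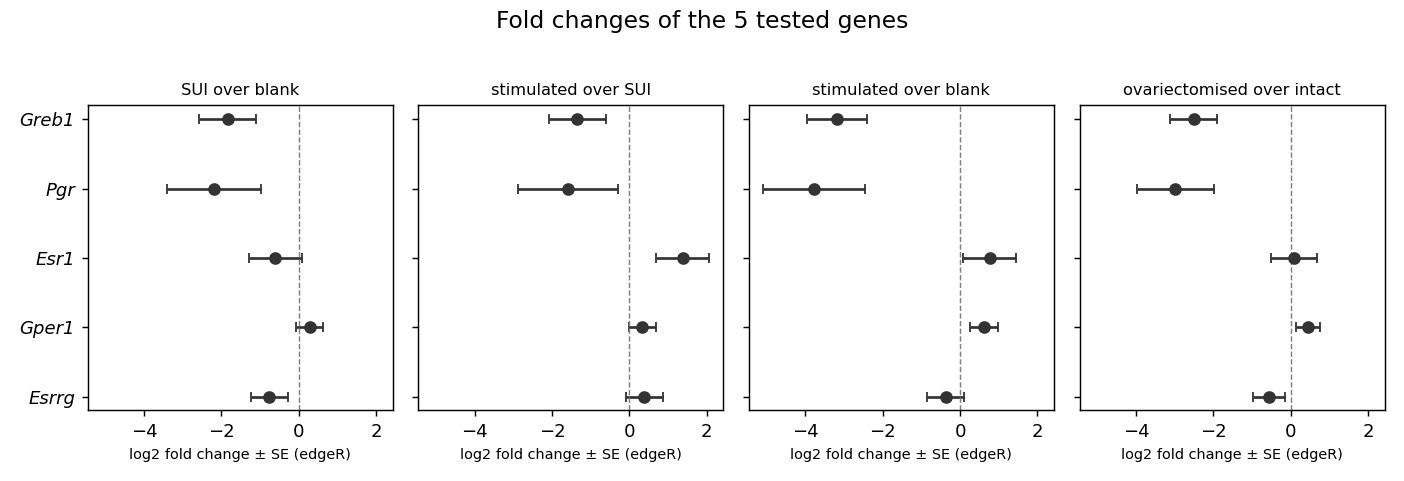
Log2 fold change ± SE from edgeR (horizontal axis) of the 5 tested genes in the 4 comparisons, with the dashed line at 0. Greb1 and Pgr are to the left in every panel and farthest in stimulated over blank (-3.18 and -3.78), and Esr1 lies at 0.08 in ovariectomised over intact and at 1.37 in stimulated over SUI.

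Other genes known to respond to oestrogen receptor went in both directions. Of 25 listed, 21 were tested beside the members, and 10 were higher and 11 lower in ovariectomised over intact muscle, with a median log2 fold change of -0.10 against 0.02 over all genes, and 0 passed with edgeR. C3, the complement component that oestrogen induces in the uterus, had the smallest p. It measured 0.874, 3.53 and 1.82 CPM in blank, 1.06, 0.425 and 0.349 in SUI, and 0.488, 0.624 and 0.374 after stimulation. All stimulated libraries were below all blank ones, as in 4.72% of tested genes, and SUI replicate 1 was not. Blank replicate 2 was again the highest library, as for Greb1 and Pgr. Its log2 fold change was -1.92 ± 0.48 (edgeR unadjusted p = 0.00255, adjusted p = 0.764), and -1.29 without blank replicate 2. Next by p came Lcn2 (0.66 ± 0.31), Igfbp4 (0.55 ± 0.34) and Rara (-0.62 ± 0.41), each with an edgeR adjusted p of 0.764. Without blank replicate 1 Lcn2 was at 0.43 and Igfbp4 at 0.29, and without blank replicate 2 Rara was at -0.36. The classical breast and uterine targets Tff1 and Ltf had at most 7 counts in any library and were not tested, and Areg had a count of 0 in all 9.

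Of the receptor cofactors and chaperones, 21 were tested: 6 were higher and 15 lower in ovariectomised over intact muscle, with a median of -0.07. Of all genes tested, 8535 were higher and 7721 lower, with a median of 0.02. Gata3, which encodes a partner of the alpha receptor in breast epithelium, was at 0.530, 0.139 and 0.0889 CPM in blank against 0.0266 to 0.0701 in the ovariectomised libraries. It too was tested only through the blank group, with 3 blank libraries and 0 others at the filter's level, so that its log2 fold change of -2.32 ± 0.74 (edgeR adjusted p = 0.764) is a description. Its highest value was in blank replicate 1, the library that stood apart, and without it the log2 fold change was -1.25. The corepressor Ncor1 (-0.35 ± 0.21), the Hsp90 cochaperone gene Ptges3 (-0.44 ± 0.27) and the coactivator Carm1 (0.28 ± 0.18) followed. Without blank replicate 1 they were at -0.069, -0.10 and 0.11.

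Among targets of the progesterone receptor and the membrane progesterone receptors, 5 of the 10 tested were higher and 5 lower, with a median of -0.07 and 0 past the threshold with edgeR. Bhlhe40, a transcriptional repressor that also belongs to the circadian clock, was at -1.06 ± 0.34. It measured 234, 188 and 109 CPM in blank, 22.3, 69.6 and 35.4 in SUI, and 153, 173 and 186 after stimulation. The SUI libraries lay below all blank ones, as in 7.77% of tested genes, and the stimulated libraries within the blank range. The pooled value thus joins groups that differ. The kinase gene Sgk1, which glucocorticoids induce too, was at 0.86 ± 0.31. Paqr8, a membrane progesterone receptor, was at 0.45 ± 0.34 and Hif1a at -0.29 ± 0.27, which was 0.021 without blank replicate 1. Of the enzymes that make or inactivate steroids, 11 of 14 tested were higher and 3 lower, with a median of 0.14 against 0.02 over all genes. Cyp19a1, the aromatase that makes oestrogen, had a count of 0 in all 9 libraries, as did Cyp17a1, Hsd3b1, Srd5a2 and Sult1e1, for which a floor of 3 counts corresponds to 0.0210 to 0.0794 CPM per library. Hsd11b1, which reactivates glucocorticoids, had the smallest p at 0.78 ± 0.28 (edgeR unadjusted p = 0.0197, adjusted p = 0.764), ahead of Hsd17b10 (0.32 ± 0.23), Hsd11b2 (0.73 ± 0.58) and Srd5a1 (0.83 ± 0.68). Hsd17b10 was at 0.085 without blank replicate 1, Hsd11b2 at 0.39 without stimulated replicate 2 and Srd5a1 at 1.30 without blank replicate 3.

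Esrrg, the oestrogen-related receptor gamma, was the most abundant of the members analysed in blank muscle and varied widely within groups. It measured 15.1, 8.84 and 8.17 CPM in blank, 2.27, 9.76 and 6.90 in SUI, and 10.7, 5.93 and 8.17 in stimulated muscle. The groups overlapped throughout, with the highest value in blank replicate 1 and the lowest in SUI replicate 1. The log2 fold change was -0.56 ± 0.40 in ovariectomised over intact (edgeR adjusted p = 0.764), -0.76 ± 0.48 in SUI over blank (0.646), -0.37 ± 0.48 in stimulated over blank (0.909) and 0.39 ± 0.48 in stimulated over SUI (0.906). Without SUI replicate 1 the last of these was -0.01, and without blank replicate 1 the first was -0.25. Leaving out each library gave -1.25 to -0.37 in SUI over blank and -0.60 to -0.064 in stimulated over blank. SUI replicate 1 was the lowest of the 9 libraries for Esr1 and Esrrg, as it was for 16.2% of all tested genes. Esrrg spans 99564669 to 99783397 of chromosome 13, plus strand, with no overlapping row. Its pattern was most like those of Tmem233 (r = 0.98), Sobp (0.97) and the sodium channel gene Scn1a (0.97), and it had an r of 0.88 with the summed fibre markers. That sum too was lowest in SUI replicate 1 (123991 CPM) and highest in blank replicate 1 (231767 CPM). The part of fibre content in the Esrrg values was not tested.

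Perm1, a muscle regulator induced by and acting with the PGC-1 and oestrogen-related receptor pair, differed between SUI and stimulated libraries without overlap. It measured 131, 114 and 50.9 CPM in blank, 12.2, 48.5 and 57.0 in SUI, and 108, 89.5 and 101 in stimulated muscle. Every stimulated library was above every SUI library, which held for 9.52% of all tested genes in that direction. Its log2 fold change was 1.35 ± 0.52 in stimulated over SUI (edgeR unadjusted p = 0.0270, adjusted p = 0.552) and -1.33 ± 0.52 in SUI over blank (unadjusted p = 0.0284, adjusted p = 0.559), comparisons that share the SUI libraries. Without SUI replicate 1, the lowest, these were 0.93 and -0.92. Ppargc1b, which encodes PGC-1 beta, had a similar arrangement at 11.0, 5.36 and 2.47 CPM in blank, 0.646, 3.09 and 2.09 in SUI, and 2.90, 4.00 and 4.70 after stimulation. It gave -1.68 ± 0.62 in SUI over blank (edgeR adjusted p = 0.552), -1.01 without blank replicate 1, and 0.99 ± 0.61 in stimulated over SUI (0.736), 0.59 without SUI replicate 1. Ppargc1a, the alpha form, averaged 9.50 ± 4.54 CPM in blank, 8.38 ± 3.60 in SUI and 12.0 ± 3.18 in stimulated muscle (SD, n = 3).

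**Figure D5:**
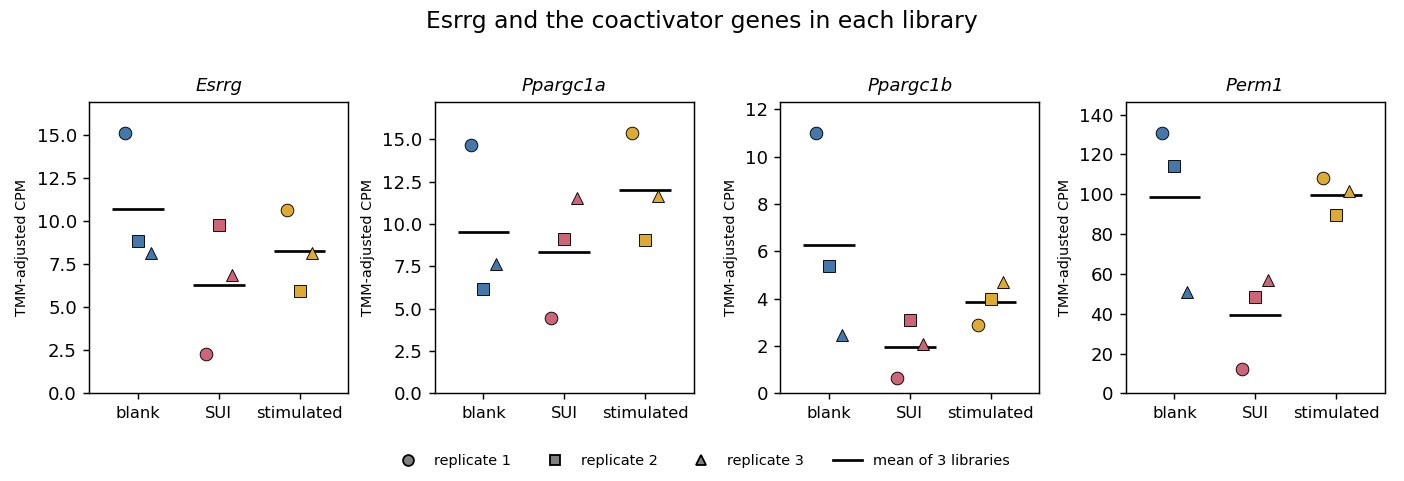
TMM-adjusted CPM (vertical axes from 0) of Esrrg and 3 coactivator genes in the 9 libraries, with group means as lines and replicate numbers as shapes. SUI replicate 1 is the lowest library for each gene, and the stimulated Perm1 values, 89.5 to 108, lie above all SUI values.

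Over the whole list of the family and its coactivators, 10 of 13 tested were higher in stimulated over SUI, with a median of 0.45 against 0.02 over all genes. In SUI over blank 9 of 13 were lower, with a median of -0.25 against 0.01. Of all 16256 genes tested, 8557 were higher in the former and 7998 lower in the latter. None of the 13 passed with edgeR in either comparison. Both comparisons share the SUI libraries. The medians were not taken without SUI replicate 1, the lowest library for Perm1, Ppargc1a and Ppargc1b. In stimulated over SUI the next by p after Perm1 were Prox1 (0.88 ± 0.49), Ppargc1b and Nrf1 (-0.26 ± 0.19), and in ovariectomised over intact the leading genes were Ppargc1b (-1.19 ± 0.51), Gabpa (-0.49 ± 0.23), Ppara (-0.59 ± 0.29) and Perm1 (-0.66 ± 0.43). Without blank replicate 1, which held the highest value of each, these were -0.52, -0.072, -0.086 and -0.41.

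Of the metabolic targets of the oestrogen-related receptors in stimulated over SUI, 30 were tested: 21 were higher and 9 lower, with a median of 0.19. Of all genes tested, 8557 were higher and 7699 lower, with a median of 0.02. Ucp3, an uncoupling protein gene of the inner mitochondrial membrane that fatty acids induce, was at 302, 636 and 273 CPM in SUI and 139, 33.8 and 96.2 after stimulation. These groups did not overlap, as for 9.28% of tested genes in that direction. Its log2 fold change was -2.17 ± 0.57 (edgeR unadjusted p = 0.00351, adjusted p = 0.417), and DESeq2 called it (-2.19, adjusted p = 0.00865) as 1 of 208 genes, or 1.28% of those tested. Pdk4, the kinase that holds back pyruvate oxidation, was at -0.98 ± 0.47, and at -0.60 without stimulated replicate 2. The respiratory chain subunits Cox5b (0.53 ± 0.18) and Cox6a2 (0.42 ± 0.22) were on the other side, each with an edgeR adjusted p above that of Ucp3, and Cox6a2 was at 0.26 without SUI replicate 1. In ovariectomised over intact muscle 16 of the 30 were higher and 14 lower, with a median of 0.05, and the smallest p belonged to Atp5f1b (0.39 ± 0.28), Uqcrc1 (0.35 ± 0.26), Pdk4 (0.54 ± 0.41) and Cycs (-0.28 ± 0.21). Without blank replicate 1 Atp5f1b was at 0.074, Uqcrc1 at 0.069 and Cycs at -0.094, and without stimulated replicate 1 Pdk4 was at 0.24.

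Slow fibre genes, which Esrrg is known to favour, were 5 higher and 6 lower of 11 in ovariectomised over intact, with a median of -0.16 and 0 past the threshold with edgeR. Myoz2, a Z-disc protein of slow fibres, had the smallest p at -0.87 ± 0.34 (adjusted p = 0.764), with its highest value, 619 CPM, in blank replicate 1. Tpm3 (-0.65 ± 0.38), Myh7b (-0.66 ± 0.44) and Tnnt1 (-0.46 ± 0.37) came next. Blank replicate 1 held the highest value of all 4 genes, and without it Myoz2 was at -0.40, Tpm3 at -0.13, Myh7b at -0.025 and Tnnt1 at 0.095.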

How the data were processed

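Pubococcygeus RNA of 9 rat libraries was analysed. Bowtie2, RSEM 1.3.1, DESeq2 1.4.5 and the build mRatBN7.2 are named in the submitters' processing notes, which assign them no role here, and no source used here states strand use. The table of counts was deposited as whole numbers and treated as RSEM expected counts. The authors also deposited FPKM values, scaled by length and library size. Groups came from the sample titles, while the library names call the SUI group sham.

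Rows without a symbol (4341 of 30518) were kept in the tests, and a repeated symbol stayed with its most abundant row. After filterByExpr (minimum count 10) and TMM scaling, edgeR 4.0.16 in R 4.3.3 fitted all 9 libraries with a robust quasi-likelihood F test, with Benjamini-Hochberg adjustment over 16256 genes at 0.05. Ovariectomised over intact is the mean of SUI and stimulated against blank. SE is the log2 fold change over the square root of F. Alternatives were DESeq2 1.42.0, limma 3.58.1 (voom, or log2 FPKM with 1 or 0.1 added), other scalings and filters, a replicate block, and leaving out each library. DESeq2 without each library was added for Greb1 after the data were seen. Only the edgeR fit of ovariectomised over intact was tested on simulated data, with changes placed in genes of higher counts. It called 81 of 100 genes changed 4-fold, 95 of 100 changed 8-fold, and 7 unchanged genes. DESeq2, limma and the other comparisons were not tested in this way.

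The members, the 17 lists and the rule for named genes were set with earlier results of these data known. The rule takes all members, up to 4 genes of each of 7 pathway lists by smallest edgeR p in ovariectomised over intact (also in stimulated over SUI for the oestrogen-related receptor lists), and the 3 genes most correlated with each member. Of 225 list entries, 219 matched a row. Tff1, Ltf, Upk2, Ppargc1a and genes with a count of 0 were named after their values were seen, as were values of Perm1, Ppargc1b and C3 in further comparisons. Depth was 50833480 to 147650284 counts, and count intervals (95%) and the floor of 3 counts cover counting error only.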

Additional observations from a re-analysis of the deposited data

How the results depend on the processing

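Of the member fold changes under alternatives other than leaving out a library, 191 kept direction and side of the threshold, 2 reversed and 2 passed it (Greb1 with DESeq2); of those for list genes, 392 kept both, 4 reversed and 1 passed. The reversals were Gper1 in SUI over blank with voom (-0.074), Esr1 in ovariectomised over intact with a replicate block (-0.16), Cycs with log2(FPKM + 1) and log2(FPKM + 0.1) (0.0095 and 0.0094), and Myh7b and Tnnt1 with voom (0.024 and 0.085), the last 3 in ovariectomised over intact. Leaving out each library gave -0.0066 to 0.85 for Esrrg in stimulated over SUI, and, in ovariectomised over intact, -0.35 to 0.33 for Esr1, -0.50 to 0.021 for Hif1a and -0.69 to 0.095 for Tnnt1. The causes were not tested.

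With edgeR 0 genes were called in SUI over blank (461 higher and 868 lower at an unadjusted p under 0.05), against 176 with DESeq2 and 0 to 1 without each library. In stimulated over SUI, edgeR called 2, library totals only 1, DESeq2 208, voom 48, only the libraries compared 0, the replicate block 1, both FPKM fits 0, and leaving out each library 0 to 3. In stimulated over blank edgeR called 1, DESeq2 21 (1 of them a member), only the libraries compared 0, the replicate block 0, log2(FPKM + 1) 0, and leaving out each library 0 to 1. In ovariectomised over intact edgeR called 0 (283 higher and 656 lower at an unadjusted p under 0.05), no filter 1, DESeq2 45 (1 of them a member), log2(FPKM + 1) 1, and leaving out each library 0 to 4. Scaling by library totals moved the median of all genes to 0.19 in SUI over blank and to -0.11 in stimulated over SUI. Replicate numbers did not pair the libraries (r of same-numbered deviations from -0.17 to 0.11), and the replicate block called no member. Pgr, with at most 56 counts, and Esr2, with at most 4, were limited by depth.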
